A study of Mus musculus with 49 samples.

Results

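The 8 genes described here encode ionotropic glutamate receptor subunits, 7 of the NMDA receptor (Grin1, Grin2a, Grin2b, Grin2c, Grin2d, Grin3a and Grin3b) and 1 of the delta receptor (Grid1). They were taken by name, without regard to their levels, from a table of 52636 genes, and all 8 had counts in the table. They were followed in D1- and D2-MSNs, the 2 classes of medium spiny projection neuron that make up most of the nucleus accumbens (NAc), in 47 libraries made by 3 isolation methods.

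NMDA receptors are cation channels that open when glutamate and a co-agonist, glycine or D-serine, bind while the membrane is depolarized, and the calcium that enters through them drives synaptic plasticity in striatal neurons. Every NMDA receptor contains GluN1, which Grin1 encodes and which binds the co-agonist. The Grin2 genes encode the GluN2A to GluN2D subunits, which bind glutamate and set channel kinetics and calcium entry, with GluN2B and GluN2A the main forms in forebrain neurons. GluN3 subunits, from Grin3a and Grin3b, bind glycine and lower calcium entry, and GluD1, from Grid1, binds cerebellin proteins that link it to presynaptic neurexins.

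The mice were of the C57BL/6J background, and their ages were not stated in the sources used here. Whole cell-FACS used males that were heterozygous for a cytoplasmic fluorophore under the Drd1 or Drd2 promoter, with 8 D1 and 6 D2 libraries. Fresh tissue was digested with papain before the sort, and the digestion and sorting buffers held APV, an antagonist of the NMDA receptor itself. Nuclear-FACS used males that carried Drd1-cre or Drd2-cre together with Thy1-loxPSTOPloxP-EGFP-F, a nuclear GFP that cre switches on, with 6 D1 and 5 D2 libraries from frozen tissue. RiboTag used males (6 D1 and 6 D2) and females (5 D1 and 5 D2) with Drd1-cre or Drd2-cre and an Rpl22 allele in which cre exchanges exon 4 for an HA-tagged copy, so that ribosome-bound RNA of the labelled cells could be immunoprecipitated from fresh tissue. In all 3 designs the label marks the cells in which the Drd1 or Drd2 driver is or has been active, and method, tissue state, buffers and RNA fraction cannot be told apart.

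Total counts ranged from 3701255 to 68777008, with the lowest and highest totals both in nuclear libraries. The 10 genes with the most counts took 84.9 to 88.3% of the total in RiboTag libraries. They took 2.70 to 54.5% in whole cell and 5.23 to 66.9% in nuclear libraries. In each library, background was measured as the count per kilobase over 1289 olfactory or vomeronasal receptor genes, which neurons of the NAc are taken not to use. Scaled to all gene bodies, it came to a median of 28.7% of the count in whole cell D1, 15.9% in whole cell D2, 4.50% in nuclear D1 and 34.5% in nuclear D2 libraries, and to at most 0.0579% in any RiboTag library. Of the 5 markers each of D1- and D2-MSNs, all were called in the labelled direction in the whole cell and in both RiboTag comparisons. The nuclear libraries went partly against their labels. Of 4 D1 markers tested, 4 lay in the labelled direction and 1 was called. Of 4 D2 markers tested, only 1 lay in the labelled direction, and it was called. The called markers were Drd1 (log2 difference of D2 minus D1 of -1.75) and Drd2 (1.74). Penk, the enkephalin precursor of D2-MSNs, was lower in libraries labelled D2 (-2.41, adjusted p = 0.00923 by edgeR). Gpr6 (-1.12) and Adora2a (-0.05) were also negative, and neither was called. The summed level of 7 MSN markers ranged from 14.1 to 64.8 FPKM in nuclear D1 and from 4.31 to 12.5 in nuclear D2 libraries. These FPKM were scaled without the gene filters of the tests, and nuclear D1 and D2 libraries compare differently on the scale of the tests. Results that rest on the nuclear libraries are therefore given beside those of the other methods.

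All positions are on GRCm38. Grin1 (ENSMUSG00000026959) lies on the minus strand at chr2:25291181-25319187, Grin2a at chr16:9567898-9995560, Grin2b at chr6:135713233-136173511, Grin2c at chr11:115249169-115267243, Grin2d at chr7:45831883-45878378 and Grin3a at chr4:49661611-49845744, all on the minus strand. Grin3b (chr10:79970715-79977190) and Grid1 (chr14:34820108-35583379) lie on the plus strand. Fragments were counted over whole gene bodies, introns included, so the make-up of each gene matters for its count. Exons made up 34.6% of the span of Grin1, 4.19% of Grin2a, 5.40% of Grin2b and only 0.781% of Grid1, whose span of 763272 bases was the longest of the 8. Counting also took no account of strand and counted a fragment for every gene it overlapped, so neighbours share reads with some members. The antisense gene Grin1os had a median count equal to 44.0% of that of Grin1 in whole cell, 41.4% in nuclear and 62.9% in RiboTag libraries, and Kdelr1, an endoplasmic reticulum retention receptor gene, had 31.6, 26.1 and 79.5% of that of Grin2d. Tmem259 had 490, 371 and 1092% of the count of Grin3b, so the values of Grin3b and Grin2d are uncertain, and those of Grin1 hold any reads of its antisense partner.

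The start regions of Grin1 and Grin2c, the members that lay furthest apart in the difference between RiboTag and nuclear libraries, are shown to give the sequence that heads these genes. They run 250 bases before to 50 bases after the RefSeq start on GRCm38.p6, on the minus strand at chr2:25319138-25319437 and chr11:115267194-115267493. Capitals mark matches to the GC box (letters GGGCGG), the E-box (letters CACGTG), the cyclic AMP response element (letters TGACGTCA) and the TATA box (letters TATAAA), searched on both strands with overlapping matches allowed.
Grin1: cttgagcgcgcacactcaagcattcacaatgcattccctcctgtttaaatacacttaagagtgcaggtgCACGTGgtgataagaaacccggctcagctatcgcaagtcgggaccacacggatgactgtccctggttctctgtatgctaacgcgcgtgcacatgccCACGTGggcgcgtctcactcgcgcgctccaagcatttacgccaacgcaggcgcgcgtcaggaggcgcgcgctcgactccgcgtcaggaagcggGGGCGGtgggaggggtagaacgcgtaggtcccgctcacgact
Grin2c: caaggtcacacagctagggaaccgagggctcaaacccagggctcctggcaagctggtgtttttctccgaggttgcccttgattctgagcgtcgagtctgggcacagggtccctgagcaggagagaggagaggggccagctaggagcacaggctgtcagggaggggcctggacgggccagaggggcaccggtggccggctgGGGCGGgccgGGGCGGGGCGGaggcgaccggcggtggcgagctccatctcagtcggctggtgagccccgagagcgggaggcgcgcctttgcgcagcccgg
The Grin1 window held 33 CpG, 1 GC box and 2 E-boxes, and the Grin2c window 22 CpG and 3 GC boxes, and neither held the other 2 motifs. Over 32851 windows of this length the median was 7 CpG, and 35.7% held the GC box, 7.15% the E-box, 1.79% the cyclic AMP response element and 13.6% the TATA box. RefSeq windows were also given for Grin2d and Grin3b and are not printed, and no protein sequences were used here.

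Per kilobase of gene span, Grin1 was the highest of the 8 genes in 14 of 14 whole cell, 11 of 11 nuclear and 22 of 22 RiboTag libraries. Grin2b was above Grin2a in 14 of 14 whole cell and 10 of 11 nuclear libraries, the exception being nuclear D2 library 5. In male RiboTag D1 libraries, Grin1 stood at 2.50 ± 0.26 FPKM (SD, n = 6) and Grin2b at 0.465 ± 0.026, with no overlap. In the same group, Grin2a followed at 0.0983 ± 0.011 FPKM, Grin3b at 0.0673 ± 0.018, Grin2d at 0.0419 ± 0.0045, Grid1 at 0.0229 ± 0.0039, Grin3a at 0.0202 ± 0.0023 and Grin2c at 0.0144 ± 0.0070 (SD, n = 6). The ranges of Grin2a and Grin3b overlapped in this order, as did those of Grid1 and Grin3a and those of Grin3a and Grin2c.

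In nuclear D1 libraries, Grin1 was at 7.09 ± 3.2 FPKM (SD, n = 6), Grin2b at 2.27 ± 0.88, Grin2a at 1.38 ± 0.43 and Grin2c at 1.15 ± 0.32. Grin1 and Grin2b were apart in range, as were Grid1 (0.697 ± 0.19 FPKM) and Grin2d (0.307 ± 0.098), and the other neighbours in this order overlapped. In whole cell D1 libraries, Grin1 was at 4.75 ± 2.4 FPKM (SD, n = 8), Grin2b at 1.76 ± 0.80 and Grin2a at 0.900 ± 0.27, and the range of every gene overlapped that of the next. FPKM used DESeq2 size factors within each method, so these levels order the genes within a method and not one gene between methods. The size factors were set without the gene filters, so FPKM of D1 and D2 are not on the scale of the tests. In nuclear D2 libraries Grin2a was at 0.924 and Grid1 at 0.544 FPKM, below nuclear D1. Their tested differences, given below, were positive. The order also rests on the length used. Per kilobase of summed exons, Grin2b was above Grin1 in every library, and the highest of the 8 was Grid1 in all whole cell and nuclear libraries and Grin2b in all RiboTag libraries.

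**Figure D1:**
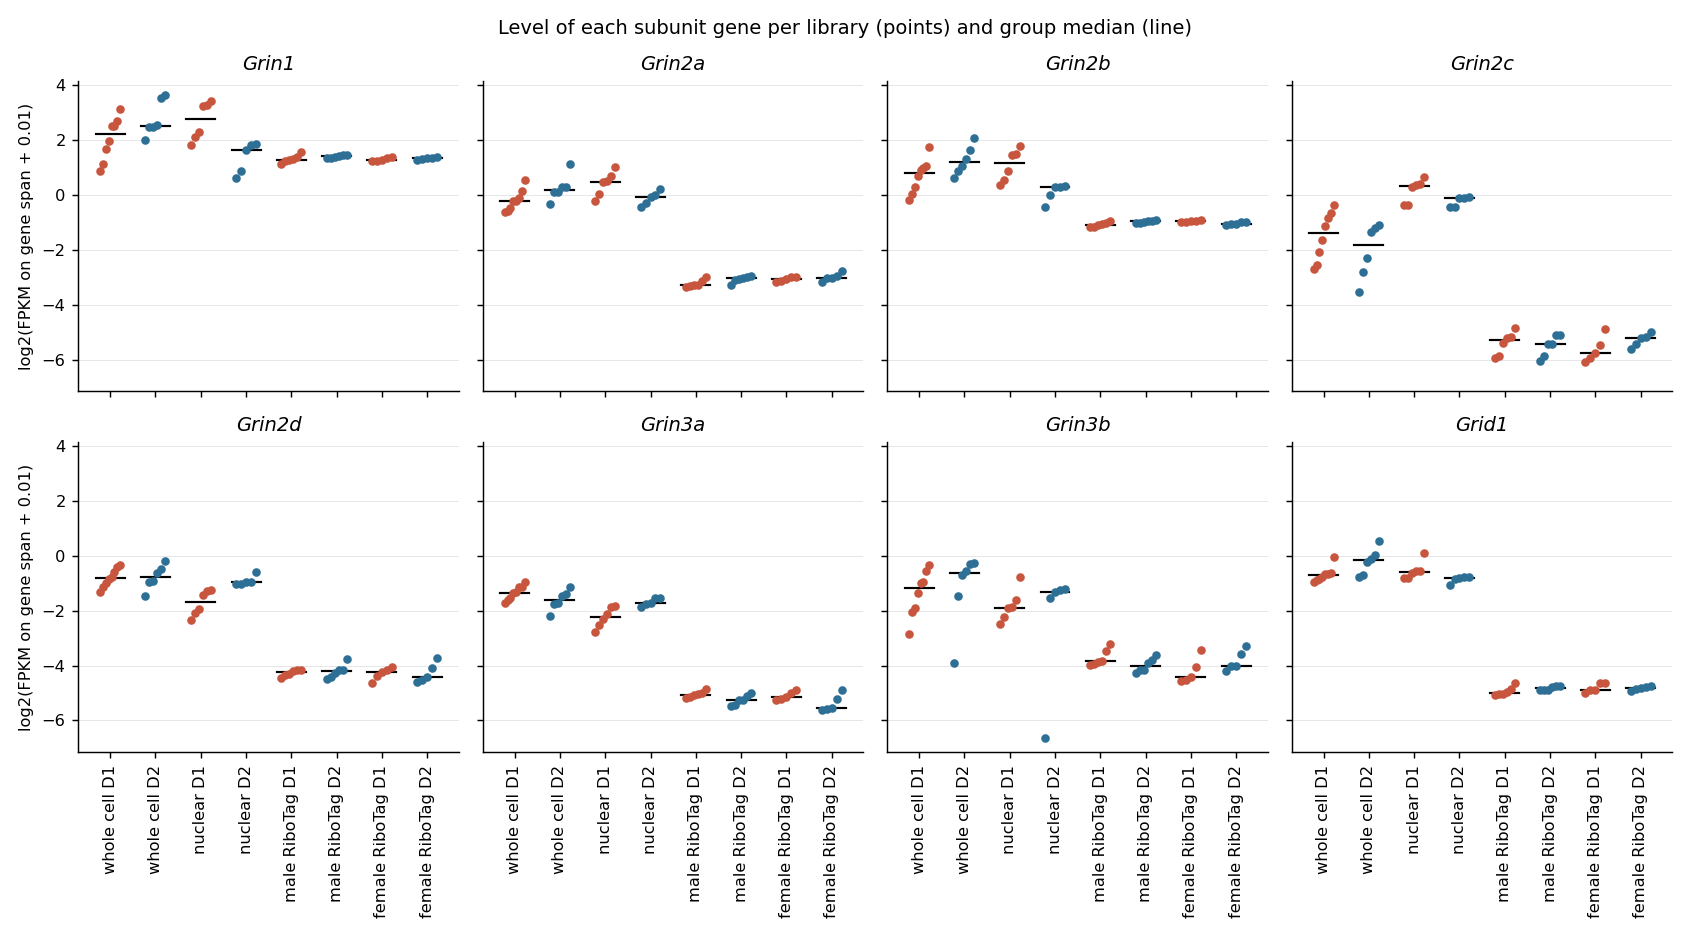
Level of each subunit gene in each library (1 point per library, D1 red, D2 blue; the line is the group median) as log2(FPKM on the gene span + 0.01) on the vertical axis, by method and cell type on the horizontal axis. RiboTag libraries form tight groups, and nuclear D2 library 7 lies at the bottom for Grin3b, for which it had no count. FPKM were scaled without the gene filters, so the heights of nuclear D1 and D2 are not on the scale of the tests.

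Ratios between subunits within a library need no scaling between libraries. Grin2b exceeded Grin2a by a median log2 ratio per kilobase of span of 0.93 (0.42 to 1.53, n = 14) in whole cell libraries, 0.36 (-0.02 to 1.01, n = 11) in nuclear libraries and 2.19 (1.72 to 2.51, n = 22) in RiboTag libraries. Every RiboTag library lay above every whole cell and nuclear library. Using summed exons moves this ratio by the same amount in every library, to medians of 0.57, -0.00 and 1.83, and leaves the differences between libraries as they are.

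Grin1 made up a median of 77.7% of the summed NMDA subunits per kilobase of span in RiboTag libraries (75.5 to 79.5%), 52.4% in whole cell libraries (32.8 to 67.6%) and 44.8% in nuclear libraries (29.7 to 62.0%). The RiboTag libraries were again apart from all others. The size of this share rests on the length used, since per kilobase of summed exons it was 37.2% in RiboTag (34.4 to 40.9%), 17.6% in whole cell (10.2 to 25.99%) and 14.5% in nuclear libraries (9.07 to 23.0%), with RiboTag libraries still apart. Likewise the log2 ratio of Grin1 to the summed Grin2 genes, 1.76 to 2.20 in RiboTag libraries on the span, turned to -0.90 to -0.48 on summed exons. Between cell types, the share was 77.6% in male D1 and 78.1% in male D2 RiboTag libraries and 76.4 and 77.1% in female ones (medians), within overlapping ranges. In nuclear libraries it was 56.6% in D1 (43.2 to 62.0%) and 42.2% in D2 (29.7 to 47.6%), again overlapping. The nuclear Grin2b to Grin2a ratio was 0.78 in D1 (0.35 to 1.01) and 0.30 in D2 (-0.02 to 0.36), where the ranges overlapped by little.

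**Figure D2:**
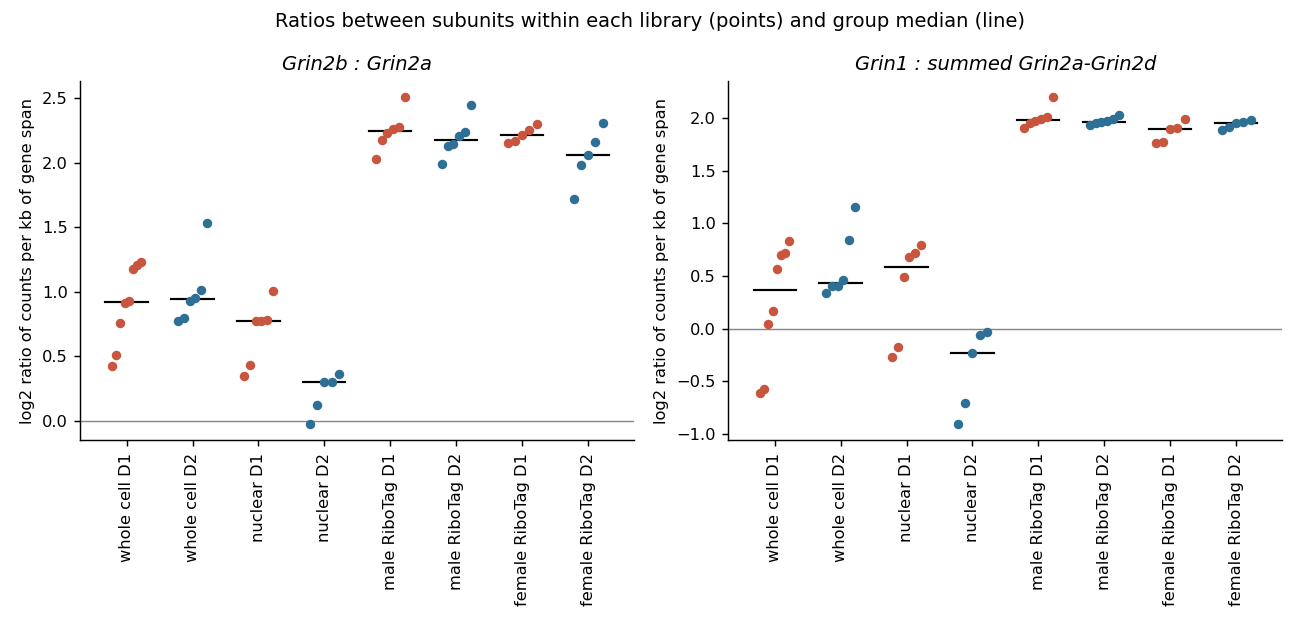
Log2 ratio of counts per kilobase of gene span, Grin2b to Grin2a (left) and Grin1 to the sum of the Grin2 genes (right), in each library (points, D1 red, D2 blue) with the group median (line), by method and cell type. In both panels all RiboTag libraries, between 1.72 and 2.51 on the left and 1.76 and 2.20 on the right, lie above all whole cell and nuclear libraries; on summed exons the RiboTag values on the right turn to between -0.90 and -0.48.

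Differences between D1- and D2-MSNs were tested by edgeR (quasi-likelihood F-test) separately for each method and, in RiboTag, each sex, with Benjamini-Hochberg adjustment over all genes that passed the filters and a call at an adjusted p of at most 0.05. Positive log2 differences are higher in D2. No member was called in any method. In whole cell libraries 0 of 4 members tested were called against 1.14% of 16352 genes, in nuclear libraries 0 of 5 against 16.1% of 9228, in male RiboTag libraries 0 of 3 against 9.30% of 6784 and in female RiboTag libraries 0 of 3 against 4.52% of 7057. At an unadjusted p under 0.05 there was 1 member in whole cell libraries (Grin1), against 2380 of 16352 genes. In nuclear libraries there were 2 (Grin1 and Grid1), against 3009 of 9228. Male RiboTag libraries had 2 (Grin2a and Grin2b), against 1467 of 6784, and female ones 1 (Grin2b), against 1127 of 7057. DESeq2 called 2 of 4 members in whole cell libraries against 4.46% of genes and 1 of 5 in nuclear libraries against 24.0%, and 0 of 3 in male and in female RiboTag libraries against 9.36 and 4.89%. Members below the FPKM filter were also tested without it, on the library scale of the genes that passed, an alternative chosen after seeing the data. Values per library are CPM, counts per 1000000 counts of the genes that passed, on that same scale. CPM were scaled within each comparison, so they do not compare a gene between methods.

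Grin1 encodes the subunit that every NMDA receptor needs. In whole cell libraries it ranged from 145 to 384 CPM in D1 (median 248, n = 8) and from 213 to 449 CPM in D2 (median 335, n = 6). The groups overlapped, with 3 D1 libraries below all D2 libraries, and the log2 difference was 0.47 (95% interval 0.03 to 0.91, adjusted p = 0.304). The 4 lowest D1 libraries for Grin1, at 145, 151, 197 and 232 CPM, were those with the highest background, at 52.4, 46.9, 34.6 and 39.2% of the count. With background subtracted the difference was 0.50, and with DESeq2 in place of edgeR it was 0.62 and called (adjusted p = 0.0329).

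In nuclear libraries Grin1 ranged from 310 to 537 CPM in D1 (median 404, n = 6) and was at 211, 354, 306, 192 and 348 CPM in D2 libraries 1, 2, 3, 5 and 7. The groups overlapped, with 3 D2 libraries below all D1 libraries, and the log2 difference was -0.53 (-0.97 to -0.09, adjusted p = 0.0892). The D2 libraries at 211 and 192 CPM had the highest background of the nuclear libraries, at 47.5 and 52.5% of the count, and with background subtracted the difference was -0.32 (adjusted p = 0.225).

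RiboTag libraries gave the narrowest intervals for Grin1. Male D1 libraries ranged from 60.4 to 79.8 CPM (median 67.3, n = 6) and male D2 libraries from 69.2 to 74.9 CPM (median 73.3, n = 6). All D2 values fell inside the D1 range, and the log2 difference was 0.08 (-0.04 to 0.19, adjusted p = 0.485). Female D1 libraries 1, 2, 4, 5 and 6 were at 72.3, 73.8, 75.2, 78.5 and 74.1 CPM and female D2 libraries 1, 2, 3, 5 and 6 at 72.7, 75.6, 77.7, 76.0 and 77.1 CPM. These groups also overlapped throughout, with a log2 difference of 0.02 (-0.07 to 0.11, adjusted p = 0.895).

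Grin2b encodes GluN2B, the subunit of slowly decaying NMDA currents. Its whole cell libraries ranged from 1132 to 2417 CPM in D1 (median 1542) and from 1323 to 2527 CPM in D2 (median 1908), and overlapped, with a log2 difference of 0.35 (-0.08 to 0.77, adjusted p = 0.481). DESeq2 called it (0.49, adjusted p = 0.0457). Nuclear D1 libraries ranged from 1673 to 2872 CPM (median 2207), and the nuclear D2 libraries were at 1864, 1993, 1978, 1499 and 1987 CPM. The nuclear groups overlapped, with 4 of 6 D1 libraries above all D2 libraries and a log2 difference of -0.23 (-0.57 to 0.12, adjusted p = 0.342).

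The RiboTag values of Grin2b pointed in opposite directions in the sexes. Male libraries ranged from 197 to 226 CPM in D1 (median 208) and from 218 to 238 CPM in D2 (median 228), with 4 D1 libraries below all D2 libraries and a log2 difference of 0.11 (0.02 to 0.20, adjusted p = 0.153). Female D1 libraries were at 244, 263, 243, 263 and 266 CPM and female D2 libraries at 248, 234, 232, 244 and 230 CPM, with 3 D2 libraries below all D1 libraries and a log2 difference of -0.11 (-0.21 to -0.01, adjusted p = 0.265). Fitted together, the D2 minus D1 difference in females minus that in males was -0.22 ± 0.063 (SE, adjusted p = 0.399 by edgeR over 7172 genes). Of the 7172 genes 0 were called for this difference (0.0%) by edgeR with either set of size factors, and 511 had an unadjusted p under 0.05, Grin2b among them. Averaged over sexes the Grin2b difference was -0.00 (-0.07 to 0.06).

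Grin2a encodes GluN2A, the subunit of faster NMDA currents. Whole cell libraries ranged from 595 to 972 CPM in D1 (median 763) and from 561 to 1214 CPM in D2 (median 1013), with a log2 difference of 0.29 (-0.11 to 0.68, adjusted p = 0.549). In nuclear libraries it ranged from 906 to 1560 CPM in D1 (median 1297) and was at 1405, 1696, 1493, 1414 and 1436 CPM in D2, with a log2 difference of 0.23 (-0.11 to 0.57, adjusted p = 0.326). Both pairs of groups overlapped.

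In male RiboTag libraries Grin2a ranged from 36.9 to 51.1 CPM in D1 (median 39.7) and from 39.5 to 50.8 CPM in D2 (median 47.1), with 3 D1 libraries below all D2 libraries. The log2 difference was 0.16 (0.02 to 0.30, adjusted p = 0.172). Without D1 library 1, the highest of its group, the difference was 0.23 and was called (adjusted p = 0.00779). With the filters used, the absence of a call thus rested on this 1 library. Grin2a was also called with all libraries where no filter was set, as given below. Female D1 libraries were at 47.5, 52.6, 45.8, 54.3 and 55.6 CPM and female D2 libraries at 51.4, 52.1, 54.5, 46.0 and 64.9 CPM, which overlapped, with a log2 difference of 0.07 (-0.09 to 0.23, adjusted p = 0.734).

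Grin2c and Grin2d encode GluN2C and GluN2D, best known from cerebellar granule cells and astrocytes and from interneurons and early development. Grin2c was tested with both filters only in nuclear libraries, where it ranged from 25.1 to 74.1 CPM in D1 (median 39.5) and was at 53.6, 56.9, 60.1, 59.8 and 59.2 CPM in D2. The D2 values lay inside the D1 range, and the log2 difference was 0.26 (-0.27 to 0.79, adjusted p = 0.482). The 6 astrocyte markers, none at 0 throughout, summed to between 3.57 and 19.1 FPKM in nuclear D1 and between 2.93 and 3.72 in nuclear D2 libraries. These sums are on the FPKM scale and not on that of the test, and their part in this result was not tested. With a median of 3.33 and 18.9% of the Grin2c count predicted by background in these groups, its nuclear signal was mostly above background, whereas the medians in whole cell D1 and D2 libraries were 54.2 and 59.0%. In RiboTag libraries it had 3 to 16 counts, near the limit of 3 counts taken as the floor, and did not pass the count filter. Without that filter its log2 difference was -0.11 (-0.84 to 0.62, adjusted p = 0.932) in males and 0.48 (-0.29 to 1.26, adjusted p = 0.653) in females.

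Grin2d stayed below the FPKM filter in every comparison. In nuclear libraries it ranged from 14.9 to 60.8 CPM in D1 (median 31.9) and was at 92.6, 80.8, 77.6, 137 and 82.7 CPM in D2. Grin2d thus had all D2 libraries above all D1 libraries, and the share of all genes that did is not given here. Without the FPKM filter its log2 difference was 1.44 (0.65 to 2.24, adjusted p = 0.0220) and was called, as were Grin3a and Grid1, which makes 3 of 8 members in a fit that called 40.0% of 30791 genes (36.6% higher) and whose median difference over all genes was 1.26. The calls of Grin2d and Grin3a were lost when genes under the FPKM filter also set the library scale (0.45, adjusted p = 0.115, and 0.25, adjusted p = 0.230). The background share of the Grin2d count moved with this result, at a median of 16.9% in nuclear D1 and 36.7% in nuclear D2 libraries, and its part in the result was not tested. In whole cell, male RiboTag and female RiboTag libraries the log2 difference of Grin2d was -0.21 (-0.86 to 0.44), 0.07 (-0.22 to 0.36) and 0.01 (-0.40 to 0.43), and none was called, with 0 of 8 members called against 0.0718% of genes in whole cell, 0 of 6 against 8.25% in male RiboTag and 0 of 6 against 3.42% in female RiboTag libraries.

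Grin3a encodes GluN3A, the subunit that forms glycine-gated receptors with GluN1 and that is abundant in the young brain. In male RiboTag libraries it ranged from 3.21 to 4.45 CPM in D1 (median 3.65) and from 2.23 to 3.81 CPM in D2 (median 2.92), with 4 D2 libraries below all D1 libraries. The log2 difference was -0.32 (-0.57 to -0.07, adjusted p = 0.110). Female D1 libraries were at 3.66, 4.403, 3.25, 4.74 and 3.29 CPM and female D2 libraries at 2.24, 4.74, 2.10, 2.07 and 3.47 CPM, which overlapped, with 3 D2 libraries below and 1 above all D1 libraries and a log2 difference of -0.42 (-0.85 to 0.00, adjusted p = 0.353).

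Over both sexes Grin3a was lower in D2 RiboTag libraries by a log2 difference of -0.37 (-0.62 to -0.12, adjusted p = 0.0458 by edgeR), the 1 of 6 members called in a fit that called 11.7% of 11133 genes (7.22% lower). With the FPKM filter Grin3a was not tested, and 0 of 3 members were called against 13.1% of genes. The 5 excitatory neuron markers, none at 0 in all libraries of a group, moved with it, summing to 1.63 to 4.09 FPKM in male D1 and 0.105 to 1.199 in male D2 and to 1.12 to 3.58 and 0.136 to 0.634 in female libraries, without overlap in either sex. The 7 GABA interneuron markers, none at 0 throughout, summed to 6.09 to 7.61 and 2.45 to 5.16 FPKM in males and to 5.19 to 10.5 and 1.36 to 5.61 in females, and in these bulk samples fewer cells of a type and less RNA per cell cannot be told apart. The 4 cholinergic interneuron markers went the other way without overlap in either sex. They summed to 0.0323 to 0.128 FPKM in male D1 and 0.254 to 0.471 in male D2, and to 0.0254 to 0.102 and 0.163 to 0.471 in female libraries. The part of these marker lists in the Grin3a result was not tested. In whole cell libraries the Grin3a difference was -0.44 (-1.06 to 0.18, adjusted p = 0.866), and background predicted a median of 49.2% of its count in D1 and 52.7% in D2.

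In nuclear libraries Grin3a went the other way, from 44.1 to 153 CPM in D1 (median 84.2) and to 256, 187, 186, 279 and 172 CPM in D2. All D2 libraries were above all D1 libraries, and the share of all genes for which this held is not given here. The log2 difference was 1.25 (0.56 to 1.95, adjusted p = 0.0225). This is close to the median of all 30791 genes of that fit, and background predicted a median of 24.3% of its count in nuclear D1 and 66.2% in nuclear D2 libraries, whose part in the result was not tested. Grin3b, which encodes GluN3B and overlaps Tmem259, had at most 180 counts in any library and none in nuclear D2 library 7, where 3 counts would be 0.811 per 1000000 counts of that library. Its log2 difference was 0.11 (-1.17 to 1.40) in whole cell and 0.81 (-0.75 to 2.38) in nuclear libraries, neither called.

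Grid1 encodes the delta receptor subunit GluD1, a synaptic organizer. Its whole cell libraries ranged from 674 to 1160 CPM in D1 (median 955) and from 568.4 to 1501 CPM in D2 (median 1411), which overlapped although 4 D2 libraries were above all D1 libraries, with a log2 difference of 0.33 (-0.12 to 0.77, adjusted p = 0.552). In nuclear libraries it ranged from 875 to 1476 CPM in D1 (median 1205) and was at 1787, 1489, 1530, 1629 and 1470 CPM in D2. Grid1 passed the filters there only with nuclear D1 library 2 kept. On the FPKM scale of the filter its mean was 0.697 in D1 and 0.544 in D2. Of the 5 D2 libraries, 4 were above all D1 libraries in CPM, and the log2 difference was 0.44 (0.09 to 0.79, adjusted p = 0.0769).

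This Grid1 value lay near the threshold, since DESeq2 called it (0.46, adjusted p = 0.0261). Background predicted a median of 7.24% of the Grid1 count in nuclear D1 and 32.04% in nuclear D2 libraries, and after subtraction Grid1 no longer passed the filters. In RiboTag libraries Grid1 ranged from 14.8 to 23.5 CPM in male D1, 17.6 to 21.0 in male D2, 17.2 to 26.2 in female D1 and 18.9 to 22.6 in female D2. These groups overlapped, and the log2 difference was 0.15 (-0.04 to 0.33) in males and -0.05 (-0.26 to 0.16) in females.

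**Figure D3:**
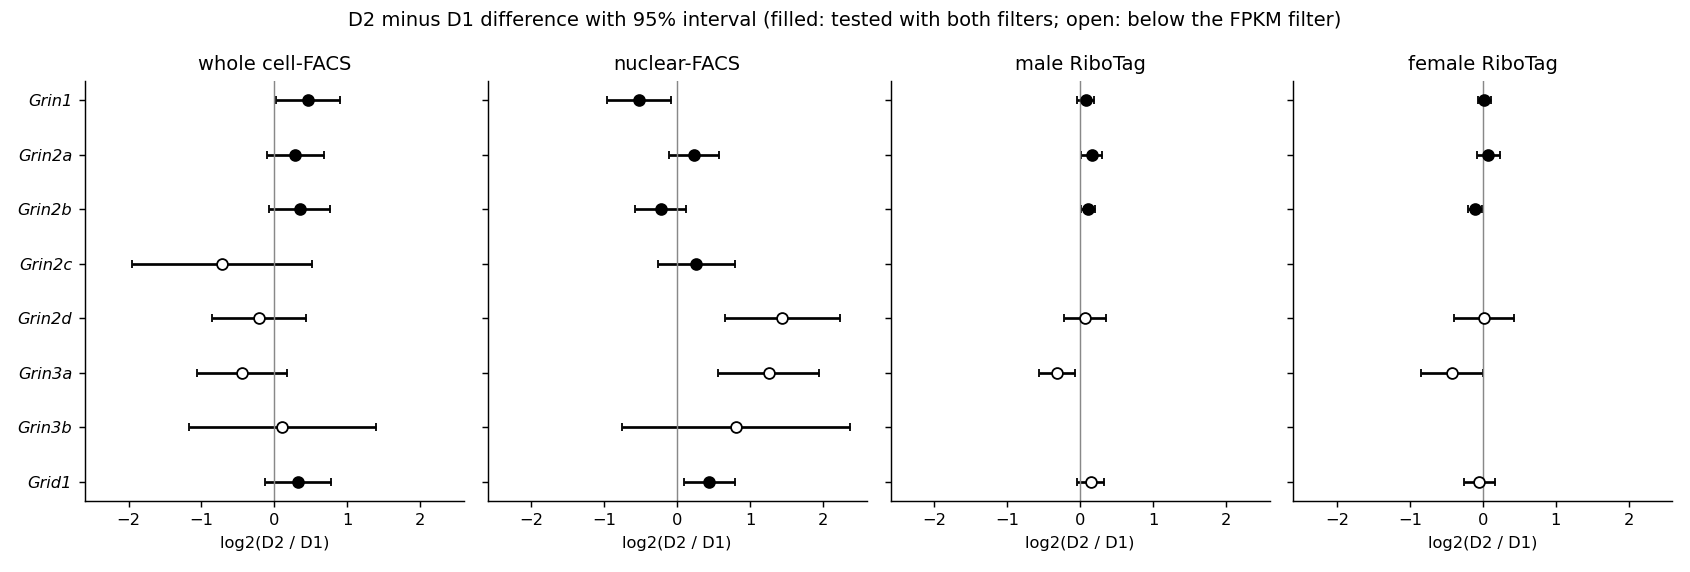
Log2 difference of D2 minus D1 (horizontal axis) with its 95% interval for each subunit gene in the 4 comparisons. Filled points were tested with both filters, open points are below the FPKM filter, and RiboTag intervals are the narrowest, such as -0.04 to 0.19 for Grin1 in males.

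The nuclear differences depended on which genes set the library scale. When genes under the FPKM filter entered the TMM factors, the difference of every member in nuclear libraries moved down, by a median of 1.08 on the log2 scale, and Grin1 (-1.70), Grin2a (-0.90), Grin2b (-1.40), Grin2c (-0.77) and Grid1 (-0.67) were all called lower in D2, in a fit that called 26.2% of genes (20.6% lower). Grin2a, Grin2c, Grin3b (-0.20, not called) and Grid1 thereby changed direction, and Grin2d (0.45) and Grin3a (0.25) were no longer called. The corresponding shift was -0.17 in whole cell, 0.00 in male and -0.01 in female RiboTag libraries. Differences between members, such as that of Grin1 to Grid1, moved little with the scale.

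Whether methods differed in the D2 minus D1 difference was tested in 1 model over all male libraries. Nuclear and whole cell libraries differed for Grin1 by -1.42 ± 0.31 (SE, adjusted p = 0.00180) and for Grin2b by -0.999 ± 0.26 (adjusted p = 0.00718), 2 of 5 members tested against 13.9% of 17848 genes (8.44% lower), where the median of all genes was 0.23. The genes' own differences, given above, were positive in whole cell and negative in nuclear libraries. Those were scaled within each method, while this model has 1 library scale over all male libraries. The sizes given here therefore also hold a shift of scale and do not follow from those differences, and the part of that shift was not tested. With background subtracted, the Grin1 value was -0.998 (adjusted p = 0.0175) and that of Grin2b -0.77 (adjusted p = 0.0594). RiboTag and nuclear libraries differed for Grin1 by 1.00 ± 0.32 (adjusted p = 0.0456), 1 of 5 against 8.25% of genes (7.17% higher). This call was lost with background subtracted (0.66, adjusted p = 0.206) and without the FPKM filter (0.999, adjusted p = 0.0645). In that fit without the FPKM filter, Grin2d (1.25 ± 0.38, adjusted p = 0.0212) and Grin3a (1.31 ± 0.35, adjusted p = 0.0119) were also called for nuclear minus whole cell, 4 of 8 members against 24.2% of genes with a median of 1.197, and Grin3a for RiboTag minus nuclear (-1.21 ± 0.37, adjusted p = 0.0445), 1 of 8 against 5.13% with a median of -0.82. RiboTag and whole cell libraries did not pass the threshold for any of 5 members, against 0.286% of genes. Nor did they for any of 8 without the FPKM filter, against 0.0963%. The difference was -0.42 (-1.03 to 0.19) for Grin1 and -0.26 (-0.77 to 0.24) for Grin2b. Of the 5, 0 had an unadjusted p under 0.05, against 1547 of 17848 genes.

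The level of the members differed between methods in the same model, averaged over D1 and D2. These differences are on 1 scale over all male libraries, unlike the CPM above, which were scaled within each comparison. Relative to whole cell libraries, male RiboTag libraries were higher for Grin1 (log2 difference 1.58 ± 0.15, adjusted p = 9.78e-12) and Grin2b (0.65 ± 0.13, adjusted p = 1.83e-05) and lower for Grin2a (-0.61 ± 0.12, adjusted p = 1.30e-05), Grin2c (-1.99 ± 0.35, adjusted p = 3.92e-06) and Grid1 (-2.24 ± 0.13, adjusted p = 3.92e-18). All 5 members tested were called, against 82.0% of genes (25.7% higher and 56.2% lower), and the median of all genes was -0.93, so that Grin1, Grin2b and Grin2a lay above that median and Grin2c and Grid1 below it. Relative to nuclear libraries, Grin1 (1.32 ± 0.16) and Grin2b (0.39 ± 0.13) were again higher and Grin2a (-1.36 ± 0.12), Grid1 (-2.604 ± 0.13) and Grin2c (-4.10 ± 0.37) lower, 5 of 5 against 85.0% of genes (27.6% higher and 57.4% lower) with a median of -1.13. The RiboTag side of the Grin2c values rests on at most 16 counts per library. The Grin2b call there was lost with DESeq2's size factors (0.17, adjusted p = 0.170) and with background subtracted (0.29, adjusted p = 0.0579).

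Exons made up 34.6% of the span of Grin1, 27.9% of Grin2c, 5.40% of Grin2b, 4.19% of Grin2a and 0.781% of Grid1. For Grin1, Grin2b, Grin2a and Grid1 this share fell in the order of the differences, while Grin2c was against that order, and the part of exon share in them was not tested. Nuclear libraries were higher than whole cell libraries for Grin2c (2.11 ± 0.29, adjusted p = 2.91e-07), Grin2a (0.75 ± 0.12, adjusted p = 2.21e-06) and Grid1 (0.37 ± 0.12, adjusted p = 0.0189), 3 of 5 members against 31.7% of genes (14.4% higher). Grin1 (0.26 ± 0.16, adjusted p = 0.231) and Grin2b (0.26 ± 0.13, adjusted p = 0.133) did not pass the threshold. The summed level of astrocyte markers, cells in which Grin2c is known to be used, had a median of 8.84 FPKM in nuclear D1 and 3.07 in nuclear D2 libraries, and of 1.87 in whole cell D1 and 2.13 in whole cell D2 libraries. These levels were scaled within each method, so the methods are set side by side only, and their part in the Grin2c difference was not tested. Without the FPKM filter, Grin2d and Grin3a were lower in RiboTag than in whole cell libraries by log2 differences of -1.10 ± 0.19 and -1.65 ± 0.18 and lower than in nuclear libraries by -1.21 ± 0.20 and -1.77 ± 0.19, and Grin3b, at -0.40 ± 0.39 and -0.36 ± 0.41, was not called. Those fits called 7 of 8 members in each case, against 88.4 and 90.6% of genes with medians of -3.11 and -3.52, and 3 of 8 for nuclear minus whole cell against 18.1%.

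**Figure D4:**
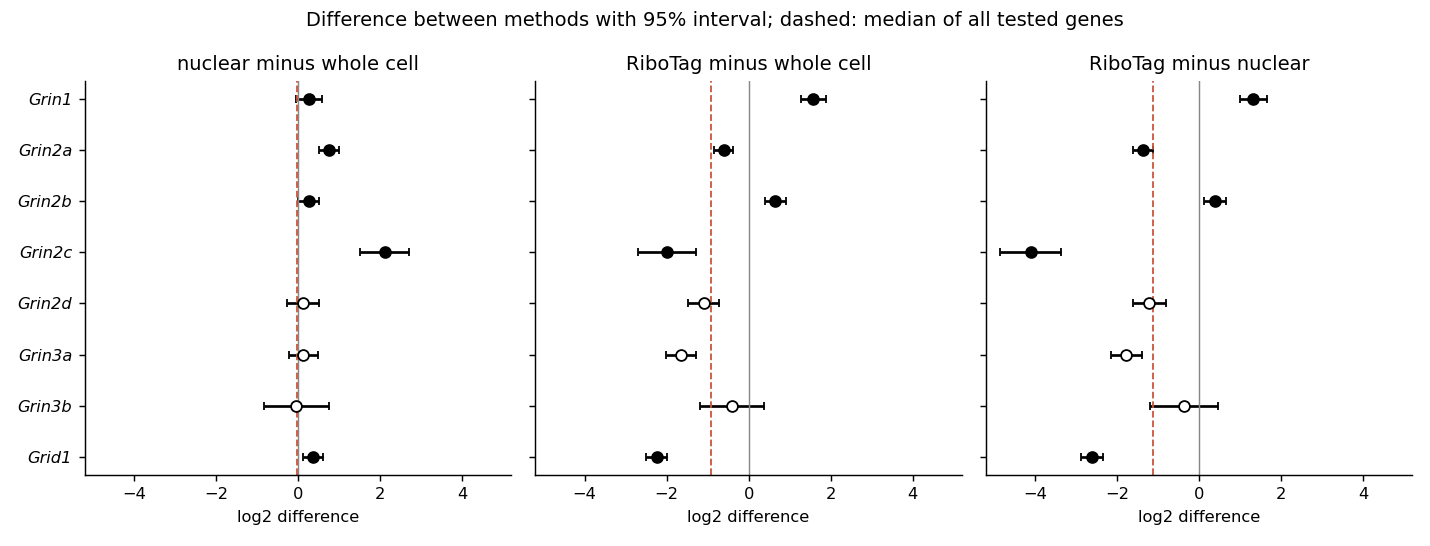
Log2 difference between methods (horizontal axis), averaged over D1 and D2 males, with its 95% interval for each subunit gene; open points are below the FPKM filter, and the dashed line is the median of the genes that passed it. Grin1 and Grin2b lie right of the median and Grin2c and Grid1 left of it in both RiboTag panels.

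Background bore unequally on the members. It predicted a median of 3.44% of the Grin1 count, 8.93% of Grin2b, 16.9% of Grin2a and 25.8% of Grid1 in whole cell libraries, and 32.5% of Grin2d, 50.2% of Grin3a, 40.3% of Grin3b and 54.2% of Grin2c. The medians in nuclear libraries ran from 3.60% for Grin1 to 48.3% for Grin3a. In RiboTag libraries they ran from 0.0106% for Grin1 to 2.10% for Grin2c.

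**Figure D5:**
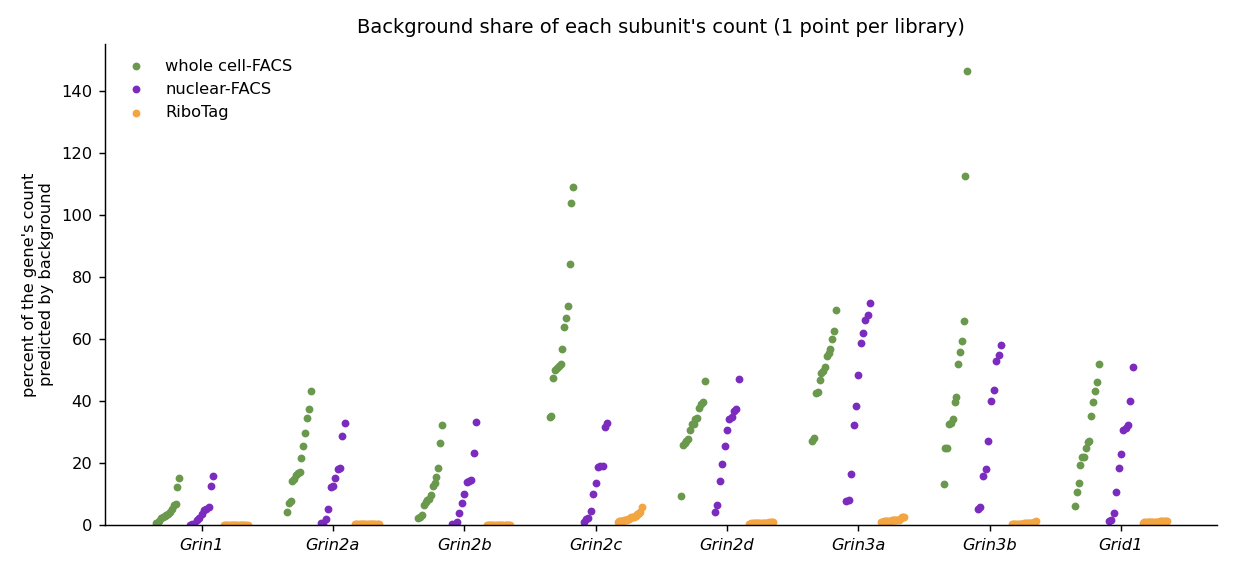
Percent of each gene's count that background predicts (vertical axis), from the background per kilobase times the gene span, with 1 point per library coloured by method. Whole cell and nuclear points spread up to 146%, for a Grin3b library with few counts, while all RiboTag points lie at or below 5.79%.

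Sex was compared in RiboTag libraries, averaged over cell types. Female libraries differed from male ones by a log2 difference of -0.03 (-0.10 to 0.05) for Grin1, 0.05 (-0.01 to 0.12) for Grin2b and 0.14 (0.02 to 0.25, adjusted p = 0.484) for Grin2a. None of the 3 was called, against 0.0837% of 7172 genes. Of the 3, 1 (Grin2a) had an unadjusted p under 0.05, as did 610 of the 7172 genes.

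Genes that work with these receptors were described by 2 lists. Of 55 genes for NMDA receptor scaffolds, kinases and co-agonist handling, 34 were tested in male RiboTag libraries, where 5 were called higher and 4 lower in D2 (4.08 and 5.22% of all genes), with a median log2 difference of 0.05 against 0.00 for all genes. Shank1, a postsynaptic scaffold, was lower in D2 by -0.68 ± 0.078 (SE, adjusted p = 1.00e-06) in males and by -0.73 ± 0.095 (adjusted p = 3.28e-05) in females. Nefl, the light neurofilament that binds GluN1, was lower in males (-0.64 ± 0.088, adjusted p = 1.31e-05) and at -0.32 ± 0.12 in females (adjusted p = 0.149).

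Ptpn5, the striatal phosphatase STEP that acts on GluN2B, was higher in male D2 libraries (0.37 ± 0.052, adjusted p = 2.17e-05) and at 0.19 ± 0.059 in females (adjusted p = 0.0658). In females 36 of the 55 were tested, 1 was called higher, the kinase gene Ptk2b (0.19 ± 0.048, adjusted p = 0.0234), and 5 lower, among them Rasgrf1, a calcium-regulated exchange factor that binds GluN2B (-0.23 ± 0.051, adjusted p = 0.0109), with a median of 0.06 against -0.00 for all genes, of which 1.97% were called higher and 2.55% lower. Among whole cell libraries 1 of 38 was called, with a median of -0.01 against -0.09 for all genes, of which 0.361% were called higher and 0.783% lower. In nuclear libraries 13 of 35 were called lower and 1 higher in D2, with a median of -0.38 against 0.03 for all genes, of which 10.4% were called lower and 5.70% higher. Among those lower were the calmodulin genes Calm2 (-2.29) and Calm3 (-2.40) and the anchor Akap5 (-2.25), with adjusted p = 0.00923, 0.01005 and 0.00923. Calm2 and Calm3 were at 0.08 and -0.03 in male RiboTag libraries, neither called, while Akap5 was higher in male D2 RiboTag libraries (0.18, adjusted p = 0.0223) and Ptpn5 lower in nuclear D2 libraries (-0.55, adjusted p = 0.0351).

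Of 12 genes for partners of delta receptors, 3 were tested in each RiboTag comparison. Nrxn2, a presynaptic neurexin, was higher in D2 by 0.55 ± 0.058 (SE, adjusted p = 2.53e-07) in males and by 0.60 ± 0.057 (adjusted p = 4.04e-07) in females. Cbln4, a cerebellin, was higher in male D2 libraries by 1.61 ± 0.26 (adjusted p = 0.000140) and stood at 0.89 ± 0.34 in females (adjusted p = 0.172). In whole cell libraries 1 of 5 was called, and in nuclear libraries 0 of 4. The list medians were 0.55 and 0.60 in male and female RiboTag, 0.41 in whole cell and -0.07 in nuclear libraries.

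The genes whose log2 FPKM ran most like that of a member over the 47 libraries were found among 3983 protein-coding genes that passed the filters of all 4 comparisons. For Grin1 they were Camk2b (Pearson r = 0.968), Ptprn (0.966) and Cacnb1 (0.962), for Grin2a Kalrn (0.997), Prkce (0.996) and Dnmt3a (0.995), and for Grin2b Ylpm1 (0.992), Rtn1 (0.990) and Rgs9 (0.989). Grin2a and Grin2b had an r of 0.944 with each other, and Grin1 had 0.714 with Grin2a and 0.892 with Grin2b. The points share method and depth, and most of their spread lies between methods. These FPKM were scaled within each method, so that spread is not on 1 scale and is partly shared by all genes. The values of r therefore describe likeness across methods only loosely, and the part of the scaling in them was not tested.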

How the data were processed

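RNA of sorted cells, sorted nuclei or HA-tagged ribosomes was ribosome-depleted, made into stranded libraries and sequenced in paired ends. The authors aligned reads to GRCm38 with HISAT2 2.0.5 (submitters' processing notes) and deposited counts per gene from featureCounts, unnormalized, over whole gene bodies, without strand, counting a fragment for each gene it overlapped and leaving out multimapped ones. The 49 columns gave 47 libraries, since the repeat run of whole cell D1 library 1 and a further lane of D2 library 3 were summed with their libraries. Column names give 1 more D1 and 1 fewer D2 whole cell column than the sample titles do, and columns were taken by name. The source of each library was a different mouse per the study's methods.

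Genes needed more than 1 fragment per 1000000 in at least 2 libraries, and an FPKM on the gene span of at least 1 in 1 library and at most 50000 (whole cell, nuclear) or of at least 0.1 in 2 libraries (RiboTag). Tests used edgeR 4.0.16 (quasi-likelihood, TMM, Benjamini-Hochberg over all genes tested), with DESeq2 1.42.0 as an alternative, in R 4.3.3, with tables and plots in Python 3.11.15. SE is the absolute log2 difference over the square root of F. Code was checked on simulated counts in which 200 genes differed. Of the gene identifiers, 52489 of 52636 matched the GENCODE annotation given for the same build. A level of 3 counts, taken as the floor, was 0.0436 to 0.811 per 1000000 counts, which covers counting error only.

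The members and lists were chosen with earlier results of these data known. Named besides the members were up to 4 called genes per list and comparison with the smallest adjusted p, the 3 genes most like each member tested throughout, and overlapping genes. Same-numbered libraries were not paired by any source used here, and their deviations did not correlate above 0.1 throughout in any comparison. P-values measure the spread between these libraries. Alternatives were size factors, test, filters, gene length, call rule, block, each library left out, background subtraction and the repeat run. Some genes that this rule names are not reported here. The study's other analyses were not used here.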

Additional observations from a re-analysis of the deposited data

Results flagged for a closer look

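In 64 sets of a member's CPM in 1 group, 3 held a library that stood apart from the rest by Dixon's criterion, about the number that chance gives at 1 in 20. They were whole cell D1 library 6 for Grin2b (2417 CPM, group median 1542), and nuclear D2 library 5 for Grin2b (1499 CPM, median 1978) and for Grin2d (137 CPM, median 82.7). Nuclear D2 library 5 also had the highest background share of all libraries, 52.5% of its count, whose part in these values was not tested.

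The D2 minus D1 difference differed between methods by an interaction test for 2 members. For Grin1 the nuclear difference was lower than the whole cell difference by a log2 value of -1.42 and the RiboTag difference was higher than the nuclear one by 1.00, and for Grin2b the nuclear difference was lower than the whole cell one by -0.999. The model, with 1 library scale over all male libraries, called 13.9% of 17848 genes for nuclear minus whole cell. It called 8.25% for RiboTag minus nuclear. With background subtracted, the Grin2b value and the RiboTag minus nuclear value of Grin1 were no longer called.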

How the results depend on the processing

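Leaving out each library in turn left 0 members called in the whole cell, nuclear and female RiboTag comparisons and gave 0 to 1 in male RiboTag libraries, and only Grin2a in female RiboTag libraries changed sign (lowest -0.0047, highest 0.12). Without nuclear D1 library 2, Grid1 did not pass the filters and was not tested in nuclear libraries. All-gene calls ranged from 59 to 644, 464 to 2065, 475 to 772 and 220 to 347 in whole cell, nuclear, male and female RiboTag libraries. DESeq2 called 2 of 4 members in whole cell libraries (729 of 16352 genes, against 187 by edgeR). It called 1 of 5 in nuclear libraries (2214 of 9228 genes, against 1484). In nuclear libraries 5 of 8 members were called without the FPKM filter (8082 of 30791 genes) and with summed exons (8306 of 27699). Without any filter 4 of 8 were called (9400 of 51744 genes), and on the library scale of the filtered genes 3 of 8 (12318 of 30791).

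In those nuclear fits without the FPKM filter, without any filter and with summed exons, the direction turned for Grin2a (-0.90, -0.88 and -0.85), Grin2c (-0.77, -0.75 and -0.72), Grin3b (-0.20, -0.17 and -0.15) and Grid1 (-0.67, -0.65 and -0.62), where library scales shifted by construction. The same 3 fits turned Grin2d in whole cell libraries (0.027, 0.065 and 0.072). Without any filter 1 of 8 members was called in male RiboTag libraries (Grin2a), against 1150 of 30562 genes. In female ones it was also 1 of 8 (Grin3a, -0.39), against 693 of 30894. Without the FPKM filter 1 of 6 was called over both sexes (Grin3a), against 1302 of 11133. Over both sexes Grin2b was 0.0010 with DESeq2's size factors. For the interaction of method with cell type, 4 members were called for nuclear minus whole cell without the FPKM filter, and 0 for RiboTag minus nuclear with background subtracted, where the 1 called without the FPKM filter was Grin3a in place of Grin1. The log2 ratio of Grin2b to Grin2a per summed exon length was 0.57, -0.0012 and 1.83 in whole cell, nuclear and RiboTag libraries. Grin1 in male RiboTag D1 libraries was at 7.21 FPKM by summed exons and 7.19 with size factors over all libraries. The cause of the other changes was not tested.

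With the library number as a replicate block, 0 members were called in any comparison, and all-gene calls were 142 against 719 without the block on the same whole cell libraries, 0 against 465 in nuclear, 574 against 631 in male and 203 against 214 in female RiboTag libraries. The libraries share only a number, and not every D1 library correlated best with its own number. Depth limits the D2 minus D1 statements on Grin2c and Grin3b in RiboTag libraries, which were below the count filter and not called without it.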
